A study of Homo sapiens with 6 samples.

Results

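SW480 is an established human colorectal adenocarcinoma line, known to carry mutant p53, which the labels do not state and gene counts cannot show. It was treated for 24 h with MPM-1, a mitochondria-targeting fluorescent probe that the sample labels also call WT4, or with DMSO, the solvent. RNA was sequenced from 3 libraries per treatment, and the labels give every library the genotype WT and no other difference than the compound. The dose used for sequencing is not given in the sources used here, and a single cell line at a single time was sampled. Nothing states whether the 3 libraries came from separate cultures, so the p-values measure the spread between these libraries, which may be technical. The genes described here are 9 p53 target and regulator genes, MDM2, MDM4, ZMAT3, TP53INP1, TP53I3, RRM2B, FDXR, GDF15 and GADD45A, taken by symbol from the 12982 genes of the deposited table. All 9 were found and all 9 were tested.

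p53 is a transcription factor that is stabilized by DNA damage and other stresses and then activates genes for cell cycle arrest, DNA repair, metabolism and apoptosis. MDM2, itself a p53 target, is the ubiquitin ligase that marks p53 for degradation, and MDM4 is its paralog that binds and inhibits p53. Mutant p53 proteins of tumors have usually lost the ability to bind most of these promoters. Several of the same genes are also switched on without p53, and GDF15 and GADD45A are known to respond to the stress factors ATF4 and CHOP.

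In these cells the 9 genes did not move as a group. After MPM-1, TP53I3, GDF15 and GADD45A rose by log2 fold changes of 1.93, 1.98 and 1.10, and ZMAT3 by 0.30. MDM2 and FDXR fell by 0.33 and 0.41 on the log2 scale. MDM4, RRM2B and TP53INP1, with log2 fold changes of 0.14, 0.13 and 0.046, did not pass the test. A gene passed at an adjusted p-value under 0.05 in the quasi-likelihood test of edgeR, adjusted over all genes by Benjamini-Hochberg. It was called a DEG when that value was under 0.01 and the log2 fold change was 1 or more in either direction. Of the 9 genes, 4 passed as higher, beside 27.7% of all genes tested, and 2 passed as lower, beside 28.8%. Of all genes that passed, 49.0% were higher, and 34.7% with library size alone or 34.2% to 34.7% with limma on FPKM. The 3 rises of at least 1 were DEGs, where 5.58% of all genes were higher DEGs. No member was a lower DEG with edgeR, DESeq2 or limma, where 8.75% of all genes were in the edgeR test, and 2 were lower at an unadjusted p-value under 0.05. The MPM-1 libraries lay wholly above the DMSO libraries in 4 members and wholly below them in 2, beside 31.0% and 33.3% of all genes. The median log2 fold change was 0.14 over the 9 members and -0.026 over all genes tested.

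Promoter sequence was taken from RefSeq (GRCh38.p14) for members whose response differed: MDM2 and FDXR, which fell, and TP53I3 and GDF15, which rose. Windows were found for 6 of the 9 members, and TP53INP1, RRM2B and GADD45A had none. A p53 response element consists of a pair of 10-base p53 motifs. Capitals mark each motif found with C at base 4, G at base 7 and at most 1 mismatch elsewhere, and each line holds the 250 bases before a start site, 5′ to 3′ on the gene's strand. For MDM2 the window belongs to the promoter known to bind p53, which lies inside the gene, at chr12:68808767-68809016 on the plus strand. The FDXR window is chr17:74872995-74873244 (minus strand), the TP53I3 window chr2:24084835-24085084 (minus strand) and the GDF15 window chr19:18385908-18386157 (plus strand).
MDM2: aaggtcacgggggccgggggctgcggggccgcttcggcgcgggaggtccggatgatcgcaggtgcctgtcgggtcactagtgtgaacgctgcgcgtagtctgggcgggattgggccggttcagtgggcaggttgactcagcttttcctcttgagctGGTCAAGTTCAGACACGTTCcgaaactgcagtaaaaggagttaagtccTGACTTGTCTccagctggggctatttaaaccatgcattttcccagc
FDXR: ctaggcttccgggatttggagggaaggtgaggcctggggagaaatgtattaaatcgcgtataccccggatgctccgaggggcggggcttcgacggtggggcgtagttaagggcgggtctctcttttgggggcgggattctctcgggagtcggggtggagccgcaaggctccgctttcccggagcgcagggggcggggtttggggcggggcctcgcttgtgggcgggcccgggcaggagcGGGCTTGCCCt
TP53I3: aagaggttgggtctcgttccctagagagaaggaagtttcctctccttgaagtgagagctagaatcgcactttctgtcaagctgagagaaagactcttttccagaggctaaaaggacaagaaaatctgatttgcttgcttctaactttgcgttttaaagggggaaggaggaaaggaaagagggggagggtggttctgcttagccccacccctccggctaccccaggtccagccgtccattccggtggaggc
GDF15: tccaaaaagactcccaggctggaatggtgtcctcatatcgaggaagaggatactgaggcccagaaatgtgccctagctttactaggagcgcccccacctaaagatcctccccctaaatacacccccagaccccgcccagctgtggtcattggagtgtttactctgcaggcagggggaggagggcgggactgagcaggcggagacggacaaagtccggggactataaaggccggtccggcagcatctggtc

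In the MDM2 window, 2 such motifs adjoined each other from 94 to 75 bases before the start, with a spacer of 0 bases, and the third lay 46 to 37 bases before it. None of these MDM2 motifs matched without a mismatch, and the mismatch was allowed after the windows had been seen. A pair of this kind with a spacer of at most 13 bases was found in 1.84% of all 35116 promoter windows. The FDXR window held 1 motif, 11 to 2 bases before the start, which matched the p53 motif without a mismatch, as 6.63% of all windows did. The TP53I3 window held none, and that of GDF15 held 1 outside the printed bases, 29 to 38 bases after the start. Elements of another form, or elsewhere in or around a gene, were not sought. A window without a motif therefore does not show that a gene lacks a p53 response element. Motifs were not tested against the direction of the response. Of the other members, ZMAT3 had 1 motif, 83 to 74 bases before a start, and MDM4 had none. Windows of further MDM2 and FDXR starts, not printed, also held such motifs. With 1 mismatch allowed, a single motif was found in 45.1% of all windows, in the 250 bases before and 50 after the start. Both strands read the same for this motif, and a match is a description of the letters, not a bound site.

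MDM2 (ENSG00000135679, chromosome 12, 68808176 to 68850686 on GRCh38, 34 annotated transcripts) had CPM values (counts scaled by library size and TMM factor) of 90.1, 96.6 and 89.5 in the DMSO libraries and 71.2, 75.5 and 73.1 after MPM-1. All 3 MPM-1 libraries were below all 3 DMSO libraries, and the spread within a treatment was small beside the gap. Means and SDs of the 3 libraries were 92.1 ± 3.95 CPM with DMSO and 73.3 ± 2.18 CPM after MPM-1. The log2 fold change was -0.33, with SE 0.072 and adjusted p = 0.00363 (edgeR). Leaving out single libraries gave -0.35 to -0.29. A pseudogene on the same strand shares 3.30% of its exonic bases, and an antisense gene on the other strand 5.91%, so a small part of its reads is of uncertain origin. In bulk RNA, fewer cells expressing a gene and less RNA per cell cannot be told apart.

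MDM4 (ENSG00000198625, chromosome 1, 204516379 to 204558120) had 50.5, 57.1 and 49.98 CPM with DMSO and 61.2, 54.4 and 57.7 CPM after MPM-1. The treatments overlapped. The log2 fold change was 0.14 (95% interval -0.054 to 0.33, adjusted p = 0.197 by the same edgeR test), which holds both 0 and a rise of about the size seen for ZMAT3. On the authors' FPKM scale (fragments scaled by transcript length and depth), MDM4 read 5.08, 5.95 and 5.50 with DMSO and 7.46, 6.02 and 5.60 after MPM-1. The highest of these, in MPM-1 replicate 1, came with a count per FPKM of 0.790 of the gene's median over libraries, where the DMSO libraries were at 0.995 to 1.06. Counts and FPKM therefore differ for this gene in that library, and the part of transcript lengths in this was not tested.

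Set against each other within a library, where scaling between libraries cancels, the FPKM ratio of MDM2 to MDM4 was 1.43, 1.34 and 1.33 in the DMSO libraries and 0.689, 0.931 and 0.948 after MPM-1. In FPKM, MDM2 was the higher of the pair in each DMSO library and the lower in each MPM-1 library. In counts, which are not scaled by length, the order did not turn, and MDM2 stayed above MDM4 after MPM-1 with 2169 against 1866, 2323 against 1674 and 2453 against 1939 counts. The difference of the log2 ratio was -0.69 (exact two-sided permutation test, p = 0.1, the smallest that 3 libraries against 3 allow, and 0.1 after adjustment over 3 ratios). Taken on counts in place of FPKM it was -0.47, and without MPM-1 replicate 1 it was -0.54.

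**Figure D1:**
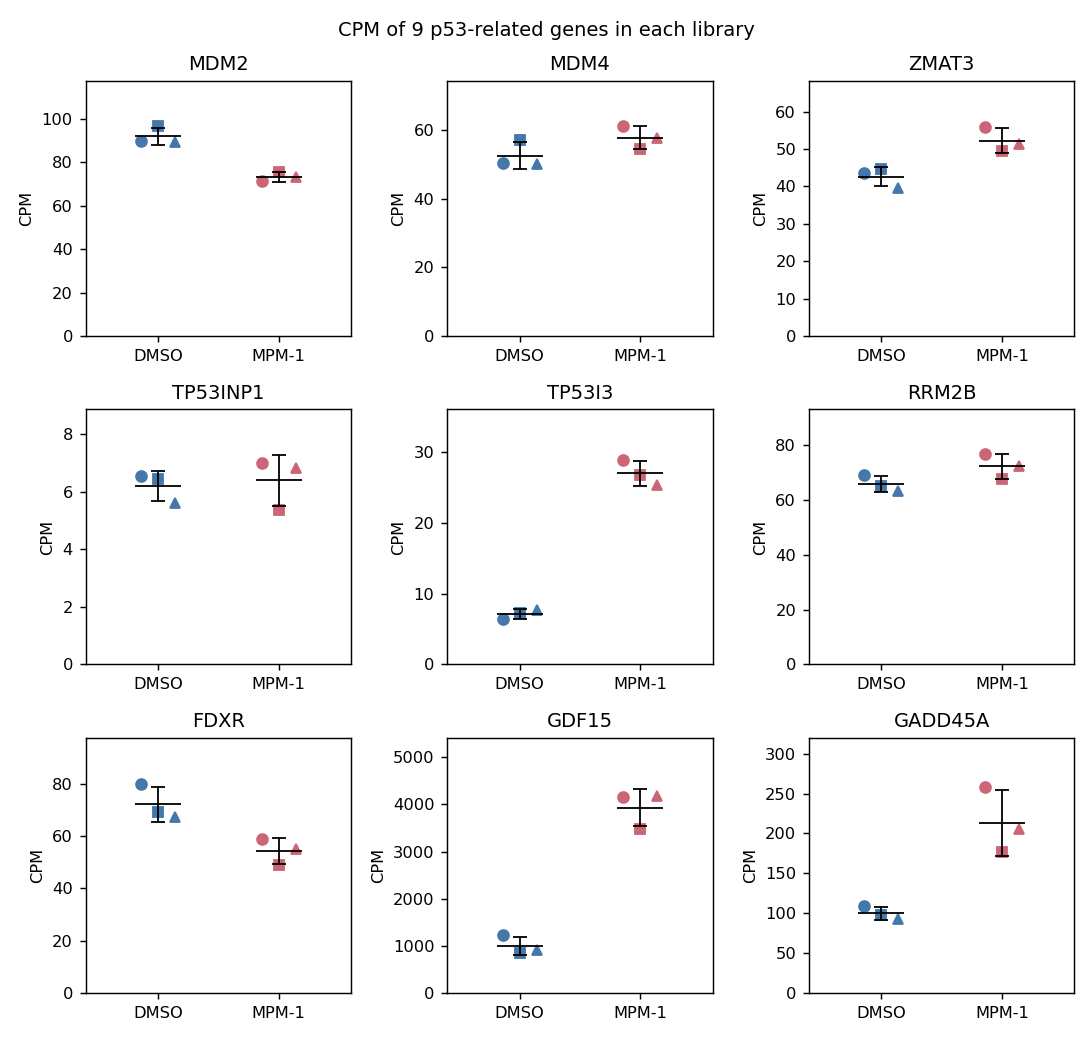
CPM (linear axis from 0) of each of the 9 genes in each library. Circles, squares and triangles are replicates 1, 2 and 3, and the black bars are the mean and SD of 3 libraries. TP53I3, GDF15 and GADD45A lie clearly apart between treatments, MDM2 and FDXR are lower after MPM-1, and MDM4, RRM2B and TP53INP1 overlap.

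TP53I3 (ENSG00000115129, chromosome 2, 24077433 to 24085861), also called PIG3, encodes a quinone oxidoreductase linked to p53-dependent oxidative stress and apoptosis. Its levels were 6.37, 7.25 and 7.71 CPM with DMSO and 28.9, 26.8 and 25.4 CPM after MPM-1. Every MPM-1 library was above every DMSO library, by far more than the spread within a treatment. The mean rose from 7.11 ± 0.681 to 27.0 ± 1.77 CPM (SD, n = 3 each), a 3.80-fold rise. The log2 fold change was 1.93 (SE 0.13, adjusted p = 3.31e-06, edgeR), at rank 182 of all genes ordered by rise, and 1.85 to 1.99 with single libraries left out. It shares 3.46% of its exonic bases with FAM228B on the other strand. Of related oxidoreductases, CRYZ fell slightly (log2 fold change -0.20, adjusted p = 0.0326 by the same edgeR test) and lost this call in 8 of the alternative settings, while NQO1 rose by 1.00 on the log2 scale.

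GDF15 (ENSG00000130513, chromosome 19, 18374731 to 18389176) encodes a secreted cytokine of the TGF-beta superfamily that rises in many forms of cell stress, mitochondrial stress among them. Its counts were 40333, 36956 and 36409 with DMSO and 126400, 106818 and 140349 after MPM-1. In CPM these were 1223, 856 and 914 against 4149, 3473 and 4180. No value of either treatment came near the other. The log2 fold change was 1.98 (SE 0.13, adjusted p = 3.90e-06, edgeR), and 1.88 to 2.15 with single libraries left out. The transcript was abundant before treatment, at rank 96 of all genes by mean FPKM with DMSO, and at rank 18 after MPM-1.

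GADD45A (ENSG00000116717, chromosome 1, 67685061 to 67688338) encodes a small nuclear protein that acts in growth arrest and DNA repair and binds the kinase MAP3K4. The 6 libraries had 109, 97.5 and 93.3 CPM with DMSO and 258, 177 and 206 CPM after MPM-1. The libraries did not overlap, and MPM-1 replicate 1 was the highest. The log2 fold change was 1.10 (SE 0.13, adjusted p = 0.000106 by the same edgeR test), and without MPM-1 replicate 1 it was 0.95, which is below the DEG threshold. It was also no DEG with library size alone or with limma on FPKM. Its paralogs rose as well. GADD45B went from 22.5 ± 3.23 to 60.5 ± 18.5 CPM (log2 fold change 1.43) and GADD45G from 1.11 ± 0.377 to 6.96 ± 3.16 CPM (2.63), both with SD over 3 libraries. In FPKM, GADD45A stayed 3.61, 4.48 and 3.90 times as high as GADD45B with DMSO and 2.87, 3.31 and 3.52 times after MPM-1, a difference of -0.30 in the log2 ratio (exact permutation test, p = 0.1). MAP3K4 fell by 1.10 on the log2 scale.

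FDXR (ENSG00000161513, chromosome 17, 74862497 to 74873031) encodes ferredoxin reductase, a mitochondrial flavoprotein that passes electrons from NADPH to the ferredoxins. It had 79.7, 69.3 and 67.2 CPM with DMSO and 58.8, 48.8 and 55.1 CPM after MPM-1. The treatments did not overlap. Its fold change was -0.41 on the log2 scale (SE 0.098, adjusted p = 0.00575, edgeR), and -0.46 to -0.31 with single libraries left out. Its electron acceptors FDX1 and FDX2 had log2 fold changes of 0.15 (adjusted p = 0.167 by the same edgeR test) and 0.25 (adjusted p = 0.104), neither of which passed.

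ZMAT3 (ENSG00000172667, chromosome 3, 179017223 to 179072279) encodes a zinc finger protein that binds RNA and is among the most regular p53 targets. It had 43.4, 44.5 and 39.7 CPM with DMSO and 56.0, 49.4 and 51.3 CPM after MPM-1, without overlap. The rise was small, with a log2 fold change of 0.30 (SE 0.086, adjusted p = 0.015 by the same edgeR test). It did not pass with scaling by library size alone (0.14), with limma on FPKM (0.11 to 0.14) or without DMSO replicate 3 (0.25).

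RRM2B (ENSG00000048392, chromosome 8, 102204502 to 102239118) encodes the p53-inducible small subunit of ribonucleotide reductase, which supplies deoxynucleotides outside S phase. It had 69.1, 65.3 and 63.4 CPM with DMSO and 76.7, 67.5 and 72.5 CPM after MPM-1. The ranges overlapped, and the log2 fold change was 0.13 (95% interval -0.045 to 0.31, adjusted p = 0.181 by the same edgeR test). RRM2, the small subunit used in S phase, and RRM1, the large subunit, both fell. RRM2 went from 141 ± 12.5 to 63.1 ± 7.54 CPM (log2 fold change -1.16) and RRM1 from 141 ± 4.97 to 78.5 ± 4.10 CPM (-0.85), with SD over 3 libraries. The FPKM ratio of RRM2B to RRM2 was 0.386, 0.294 and 0.289 with DMSO and 0.761, 0.827 and 0.722 after MPM-1. The difference of the log2 ratio was 1.26 (exact two-sided permutation test, p = 0.1), and every MPM-1 library was above every DMSO library.

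TP53INP1 (ENSG00000164938, chromosome 8, 94925972 to 94949411), whose product promotes p53 phosphorylation and autophagy, was the lowest of the 9. It had 216, 278 and 223 counts with DMSO and 213, 165 and 229 after MPM-1, or 5.60 to 6.55 and 5.37 to 6.99 CPM. The ranges overlapped. Its log2 fold change was 0.046 (95% interval -0.37 to 0.46, adjusted p = 0.849 by the same edgeR test), so the precision here was the lowest of the 9 genes. Its paralog TP53INP2 rose from 9.91 ± 0.821 to 20.5 ± 0.832 CPM (SD over 3 libraries), which is 1.05 on the log2 scale.

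**Figure D2:**
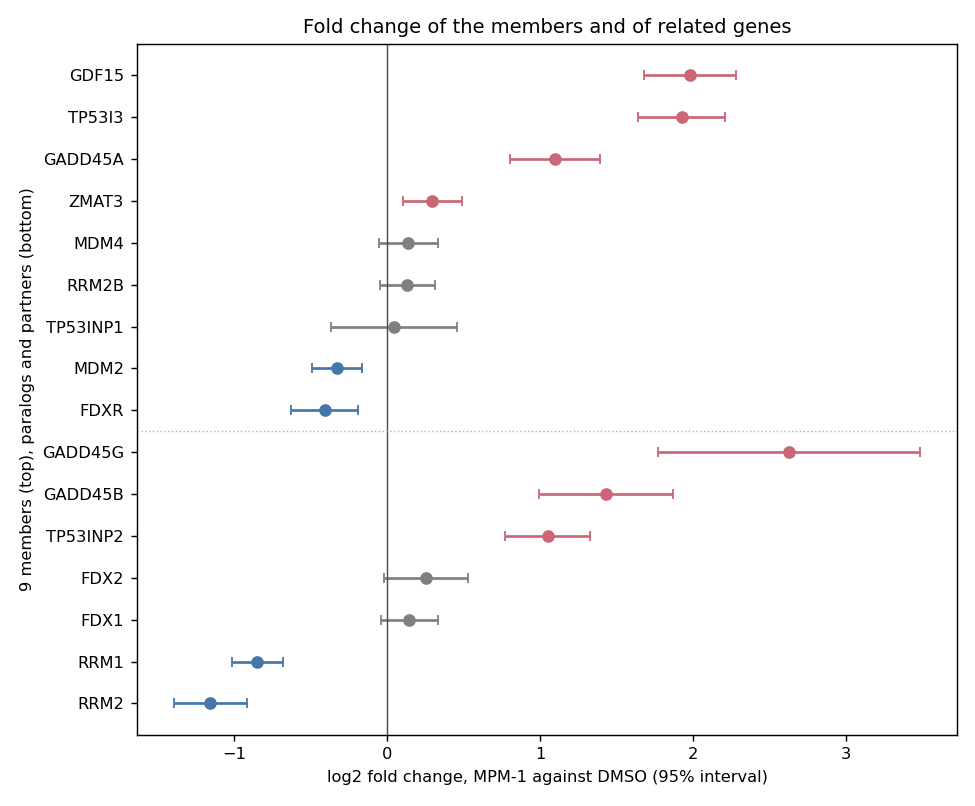
Log2 fold change of MPM-1 against DMSO (horizontal axis) with its 95% interval from edgeR, for the 9 genes (above the dotted line) and for paralogs and partners (below it). Red passed as higher, blue as lower and grey did not pass. The 9 genes run from -0.41 for FDXR to 1.98 for GDF15. RRM2 is at -1.16, and the interval of RRM2B at 0.13 includes 0.

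Compared per length, in FPKM, the order of the 9 genes with DMSO was GDF15 (847 ± 150.1), GADD45A (69.1 ± 3.85), FDXR (39.7 ± 2.59), RRM2B (13.7 ± 0.330), MDM2 (7.52 ± 0.374), MDM4 (5.51 ± 0.434), ZMAT3 (4.64 ± 0.244), TP53I3 (4.41 ± 0.329) and TP53INP1 (1.12 ± 0.0851), with SD over 3 libraries. Of these neighbours, ZMAT3 and TP53I3 overlapped between libraries. After MPM-1, TP53I3 (14.3 ± 0.379) had moved up to the level of RRM2B (13.5 ± 0.662). MDM4 (6.36 ± 0.978), MDM2 (5.35 ± 0.236) and ZMAT3 (5.10 ± 0.243) then overlapped, each with the next.

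For each DEG among the 9, the nearest genes of the table were sought by the root mean square difference of log2 CPM over the 6 libraries, each gene centred on its own mean. For GDF15 these were SIK1B (0.045), FAM102A (0.079) and MAP1LC3B (0.087). SIK1B has a near-identical copy, so its counts are uncertain. For GADD45A they were GABARAPL1 (0.036), AKAP17A (0.040) and PATJ (0.042), and for TP53I3 HIST1H1C (0.064), DCBLD2 (0.084) and GK (0.096).

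**Figure D3:**
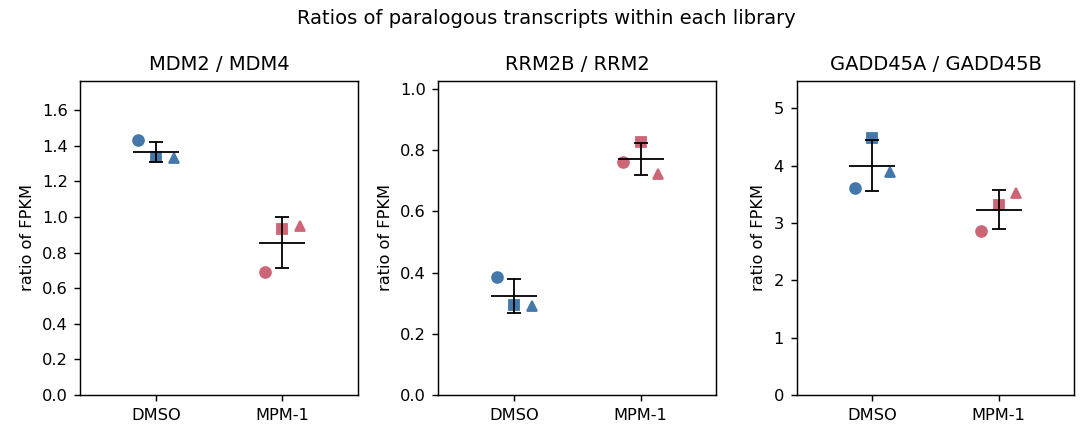
Ratio of FPKM between the paralogs MDM2 and MDM4, RRM2B and RRM2, and GADD45A and GADD45B in each library (linear axes from 0), with the mean and SD of 3 libraries. Circles, squares and triangles are replicates 1, 2 and 3. The FPKM ratio of MDM2 to MDM4 is 1.33 to 1.43 with DMSO and 0.689 to 0.948 after MPM-1, while the counts of MDM2 stay above those of MDM4 in all 6 libraries. The ratio of RRM2B to RRM2 rises from 0.289 to 0.386 with DMSO to 0.722 to 0.827 after MPM-1.

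Another 94 known p53 target genes were written down in 4 lists by role, and 88 of them were tested. As with the 9 members, they went both ways. Of the 88, 31 passed as higher, 26 as lower and 31 did not pass, which is 35.2% and 29.5% against 27.7% and 28.8% of all genes. With scaling by library size alone, which set the median of all genes at -0.18, the split was 22 higher and 35 lower. The median log2 fold change was -0.0080, and 11 were higher and 6 lower DEGs.

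Among 14 arrest and cell cycle genes, 5 passed as higher and 3 as lower, or 35.7% and 21.4% beside 27.7% and 28.8% of all genes. PLK3, a stress-responsive polo-like kinase, rose from 46.3 ± 1.61 to 209 ± 29.2 CPM (log2 fold change 2.17). CDKN1A, which encodes the cyclin-dependent kinase inhibitor p21, had 620, 474 and 454 CPM with DMSO and 1075, 1017 and 1103 CPM after MPM-1. All MPM-1 libraries were higher (1.05 on the log2 scale, SE 0.11, adjusted p = 5.62e-05, edgeR). SFN, which encodes 14-3-3 sigma, rose by 0.88. TRIM22 (-1.50, and -0.35 with limma on log2(FPKM + 1)), RAP2B (-0.73) and the antiproliferative BTG2 (-0.41) fell. The TRIM22 call was lost without each library in turn except MPM-1 replicate 1, and the BTG2 call without DMSO replicate 1 or DMSO replicate 2, so that 1 gene was lower without either of these. Without MPM-1 replicate 1 the log2 fold change of BTG2 was -0.25. With library size alone 6 genes of the list were lower, and 5 with limma on FPKM.

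Of 21 apoptosis genes tested, 8 passed as higher and 6 as lower, or 38.1% and 28.6% beside 27.7% and 28.8% of all genes. DDIT4, an inhibitor of mTORC1 signaling, rose by 1.93 on the log2 scale. BBC3, which encodes the BH3-only protein PUMA, rose from 68.9 ± 17.8 to 196 ± 46.7 CPM (1.51), and TNFRSF10B, the TRAIL receptor DR5, from 142 ± 12.2 to 348 ± 50.6 CPM (1.29). APAF1, the apoptosome scaffold, fell from 21.1 ± 3.31 to 11.4 ± 5.15 CPM (-0.89), with SD over 3 libraries as for the others, and its call was lost with the DESeq2 test and without any DMSO library. MPM-1 replicate 1 was the lowest for APAF1, at 5.45 CPM against 13.7 and 14.9 CPM, and without it the log2 fold change was -0.54. PIDD1 (-0.76) and SIVA1 (-0.50) fell. With library size alone, 5 apoptosis genes passed as higher.

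Of 13 genes listed under DNA repair and nucleotide supply, 3 passed as higher and 7 as lower. These are 23.1% and 53.8%, beside 27.7% and 28.8% of all genes. The list also holds TRIM32, BLOC1S2 and PRKAB1, which are not DNA repair genes. RRM2B, its gene of nucleotide supply, was left out as a member. The median log2 fold change of the 13 genes was -0.49, against -0.026 over all genes, and this difference was not tested. PCNA, the replication clamp, fell from 145 ± 9.24 to 83.6 ± 10.2 CPM (-0.79), POLH, a translesion polymerase, by 0.77 and TRIM32 by 1.03 on the log2 scale. BLOC1S2 (0.55) and RPS27L (0.38) rose, and with library size alone 1 gene of the list passed as higher, RPS27L not among them.

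Of 40 genes of metabolism, autophagy and signaling, 15 passed as higher and 10 as lower. The share that passed as higher was 37.5%, above the 27.7% of all genes. The share that passed as lower was below the 28.8% of all genes. IGFBP3, which encodes an IGF-binding protein, rose from 1.44 ± 0.505 to 34.8 ± 9.36 CPM, or 4.59 on the log2 scale (SE 0.28, adjusted p = 2.20e-06, edgeR). PLTP, a phospholipid transfer protein, rose by 2.54 from a low level, 0.381 ± 0.0948 to 2.25 ± 0.183 CPM, and by 0.83 with limma on log2(FPKM + 1). KITLG, the KIT ligand, fell from 181 ± 6.01 to 59.3 ± 4.00 CPM (-1.61), the mitochondrial enzyme gene ALDH4A1 by 1.27 and PANK1, of coenzyme A synthesis, by 1.24 on the log2 scale. With library size alone 16 of this list were lower, and 16 or 17 with limma on FPKM.

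Of 35 p53 regulators tested besides MDM2 and MDM4, 8 passed as higher, 9 as lower and 18 did not pass. These are 22.9% and 25.7%, near the 27.7% and 28.8% of all genes. The deacetylase SIRT1 (0.79), the arginine methyltransferase PRMT5 (0.72) and the ribosomal protein RPL23, which binds MDM2 (0.42), rose. The p53 paralog TP73 fell from 4.62 ± 0.260 to 2.00 ± 1.07 CPM (-1.21, adjusted p = 0.0235 by the same edgeR test), a call lost without DMSO replicate 2 or DMSO replicate 3. TRIM28 (-0.85) and TTC5 (-0.84) fell. With library size alone 5 of the list were higher, and with limma on FPKM 3 to 5.

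Set beside these, 24 genes of a list of 27 around ATF4 and CHOP were tested. Of them, 22 passed as higher and 1 as lower (CTH, -0.75), with a median log2 fold change of 1.19. These are 91.7% and 4.17%, beside 27.7% and 28.8% of all genes. With library size alone 2 were lower. The list includes ATF4, DDIT3 and ATF3 themselves and was chosen with earlier results of these data known. ATF3, DDIT3 (which encodes CHOP) and PPP1R15A rose by 3.08, 2.98 and 2.50 on the log2 scale. DDIT3 had 44.5, 35.1 and 41.6 CPM with DMSO and 225, 398 and 333 CPM after MPM-1. The list holds 3 of the other p53 targets, SESN2, DDIT4 and TNFRSF10B, and all 3 passed as higher. Without them, 28 of 85 other p53 targets passed as higher and 26 as lower, or 32.9% and 30.6%. The difference between the lists was not tested.

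**Figure D4:**
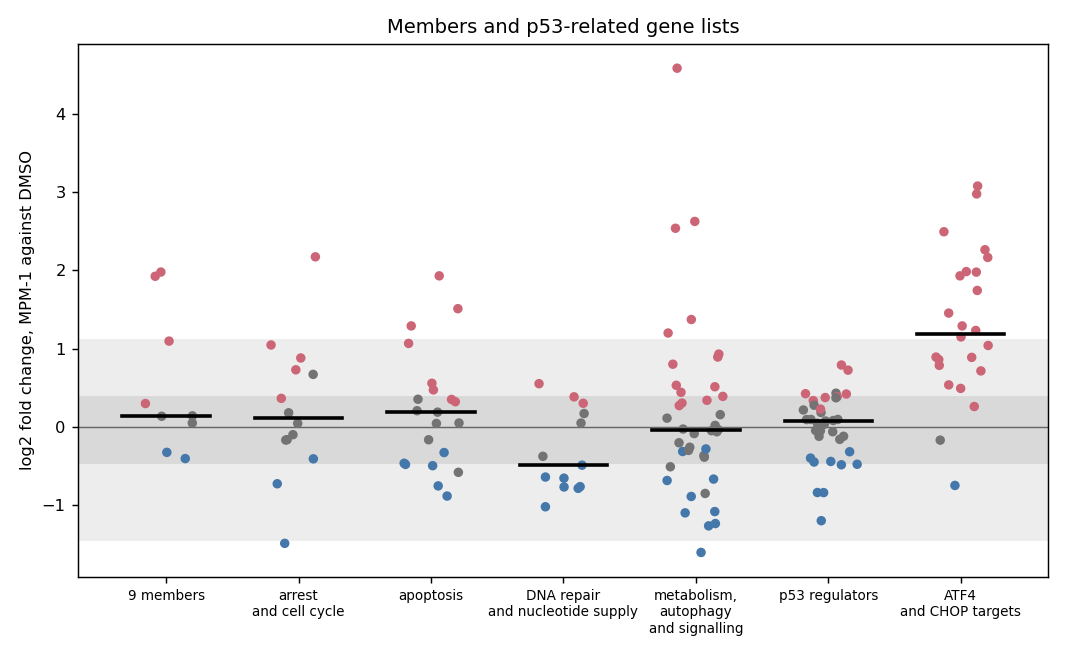
Log2 fold change of MPM-1 against DMSO (vertical axis) for each tested gene of the 9 members and of each list, members left out of the lists. Red passed as higher, blue as lower, grey did not pass, black bars are medians and the grey bands hold the middle 50% and 90% of all genes. Every list shown holds genes on both sides of 0, and the medians run from -0.49 for DNA repair and nucleotide supply to 1.19 for ATF4 and CHOP.

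The libraries held between 31733667 and 40269820 counts. The limit set by a count of 0, taken as 3 counts, lay at 0.0695 to 0.0985 CPM and covers counting error only. The share of counts from mitochondrial DNA was 8.28% to 9.11% with DMSO and 1.95% to 2.35% after MPM-1, and TMM scaling without these genes changed no call of a member. Libraries of one treatment differed by more than sampling noise (chi-square per gene of 15.4 to 33.2), and each was counted as a replicate. Of 8 epithelial markers, 7 were in the table, with a summed level of 4800 to 5528 FPKM with DMSO and 6731 to 7196 after MPM-1, and CEACAM5 was not analysed here, nor was any of 3 endothelial markers. Of the leukocyte markers CD14 was measured, at 4.56 to 5.37 FPKM with DMSO and 1.07 to 2.43 after MPM-1, and of the fibroblast markers COL1A1, at 0.391 to 0.51 and 0.0255 to 0.163. The part of these shifts in the results above was not tested.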

How the data were processed

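RNA of SW480 cells treated for 24 h with DMSO or MPM-1 was sequenced by the study in 3 libraries each, grouped here by the sample labels. The authors deposited 1 table with whole-number counts and FPKM per gene and library. They also deposited a p-value column (FDR) and a log2 fold change of their own comparison, which were not used. The submitters' processing notes name HISAT2, DESeq2 and the build mm10, although the 12127 Ensembl identifiers are human and all are in GENCODE release 29 (GRCh38), from which positions were taken. Shares, medians and ranks over all genes cover the 12982 genes of the deposited table, including those without an Ensembl identifier. Counter, annotation and filter are not given in the sources used here. The lowest total count of a gene was 115, so weaker genes were not analysed here.

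Counts were tested with edgeR 4.0.16 (quasi-likelihood, TMM, filterByExpr, which removed none, no covariates) in R 4.3.3, with Benjamini-Hochberg adjustment over 12982 genes, and the procedure was tested on simulated data. Log CPM used a prior count of 2. Ratios were compared by exact permutation tests (SciPy 1.17.1). Alternatives were DESeq2 1.42.0 (size factors and test), library size alone, TMM without mitochondrial DNA genes, filters, limma 3.58.1 on log2(FPKM + 0.1, 1 or 0.01), where a fold change understates low genes, a replicate block, and each library left out. All 9 members are named. So are the 3 largest rises and falls per list that passed without overlap, the measured partners and paralogs, and the 3 nearest genes of each member DEG. Members and lists were chosen with earlier results of these data known, and the lists were written from general knowledge. The mismatch allowed in the p53 motif was chosen after seeing the windows. Not every gene picked by the rule for named genes is reported here.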

Additional observations from a re-analysis of the deposited data

How the results depend on the processing

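The counts of members that passed or were DEGs, in each direction, and those of the other p53 targets stayed within 1.5 times under every alternative run. GDF15, TP53I3, GADD45A, MDM2 and FDXR passed in the same direction in all of them, while GADD45A was no DEG with library size alone, limma or without MPM-1 replicate 1. Directions turned in genes that had not passed. With library size alone, and then with limma on log2(FPKM + 0.1), (FPKM + 1) and (FPKM + 0.01), the log2 fold change of TP53INP1 was -0.11, -0.10, -0.058 and -0.11, the log2 fold change of RRM2B -0.019, -0.017, -0.016 and -0.017, and the log2 fold change of FDX1 -0.0053, -0.0098, -0.0092 and -0.0099. The log2 fold change of MDM4 was -0.015 with library size alone. These settings also moved the median of all genes, to -0.18 with library size alone and -0.17, -0.13 and -0.18 with limma. With a library left out TP53INP1 ran from -0.022 to 0.18. The cause was not tested.

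Same-numbered libraries of the treatments showed little shared deviation (correlations of 0.021, 0.11 and -0.074), and not every library was closest to its own number. With 3 libraries per treatment, this cannot show whether same-numbered libraries shared a culture or batch. With a replicate block 4 members were higher and 2 lower, as without it, and 29 and 26 of the other targets. Of the genes named, CRYZ lost its call under the block, at -0.20. With 3 libraries per treatment, changes inside the intervals of MDM4, RRM2B and TP53INP1 could not be detected. The difference of each FPKM ratio is the same under the block by construction, so its agreement shows nothing. An exact test flipping the signs of the paired differences gave p = 0.25 for each of the 3 ratios, against 0.1 without pairing. Both are the smallest p-values that 3 libraries per treatment allow in these tests.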
